A study of Mus musculus with 18 samples.

Results

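The Ly6 surface antigens examined here are 6 mouse genes, Ly6g, Ly6c1, Ly6c2, Ly6a, Ly6e and Ly6d, which include the genes behind the Ly-6C and Ly-6G sort markers and some of their relatives. Members were found by their symbols in the annotation of the array's probe sets, which are the groups of probes that report on a transcript. Of the 30177 probe sets with values, 5 were annotated to these genes. Ly6g (probe set 10424683), Ly6e (10424676) and Ly6d (10429520) each had a probe set of their own. Ly6c1 and Ly6c2 shared the other two, 10429568 and 10429573, so their transcripts could not be told apart and are written Ly6c2/Ly6c1 below. Ly6a, which encodes the stem cell antigen Sca-1, had no probe set annotated to it and was not analysed here.

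Ly6 proteins are small, cysteine-rich proteins built on the three-finger fold, and most are held on the outer face of the cell membrane by a glycosylphosphatidylinositol (GPI) anchor. Ly-6C, the product of Ly6c1 and Ly6c2, marks classical inflammatory monocytes and is also carried by granulocytes and some lymphocytes. Ly-6G, the product of Ly6g, is the standard surface marker of mouse neutrophils and appears as granulocytes mature. Ly6e is an interferon-inducible member known for acting on the entry of viruses, and Ly6d marks lymphoid progenitors that turn to the B cell lineage.

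Expression was measured on 18 arrays of cells sorted from the bone marrow of C57BL/6 mice, with 9 arrays of neutrophils and 9 of Ly-6C(hi) monocytes. All mice carried Zeb2(fl/fl), the floxed alleles of a zinc-finger repressor, and those labelled Zeb2-deficient also carried Mx1-Cre(tg), a recombinase transgene that interferon switches on in many cell types. Each cell type had 4 arrays of controls given poly(I:C), a synthetic double-stranded RNA that sets off an interferon response, 4 arrays labelled Zeb2-deficient that received the same, and 1 array of an untreated control. Treated mice received 2 intraperitoneal injections of 150 µg, 48 h apart at most, and marrow was collected 3 weeks later. Control mice had no Cre, so an effect of Cre cannot be told apart from one of Zeb2 loss. Nothing in the labels ties the arrays to separate animals, so the p-values below measure the spread between arrays, which may be technical. Single untreated arrays allow no test of poly(I:C), so their values are given beside the others. The sources used here give neither the age of the mice nor the neutrophil gate.

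Values are log2 levels, and a difference of 1 is a change of 2-fold. The arrays fell into 2 runs of accession numbers, called set A (10 arrays) and set B (8 arrays), with 2 arrays of every treated group in each, and the untreated arrays in set A. Zeb2 itself read 9.86 to 10.08 in control monocytes and 8.74 to 9.84 in those labelled deficient, a change of -0.48 (limma, adjusted p = 0.271). In neutrophils it read 6.86 to 7.54 and 7.10 to 8.25, a change of 0.49 (adjusted p = 0.972), which ran against the label, so groups are named below by their label. As a floor for low values, the 40th percentile of each array was taken, which was 4.28 to 4.37 in monocyte arrays and 4.40 to 4.50 in neutrophil arrays.

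The promoters of the Ly-6C and Ly-6G genes are closely related, and so is that of Ly6a2, a neighbouring relative that comes up again below. RefSeq promoter sequences (build GRCm38.p6, from 250 bases before to 50 after the annotated start) were matched for 3 of the 6 members, Ly6g, Ly6c1 and Ly6c2, and not for Ly6a, Ly6e and Ly6d. Ly6g, Ly6c1 and Ly6c2 each had 2 windows for their alternative starts. For each gene the window shown is the one with the longest alignment to the first Ly6c2 window. Capitals mark GAGGAA, a core motif of the myeloid factor PU.1, on either strand (TTCCTC on the other), and TATAA on the coding strand. All lie on chromosome 15.
Ly6g, chr15:75155079-75155378, + strand: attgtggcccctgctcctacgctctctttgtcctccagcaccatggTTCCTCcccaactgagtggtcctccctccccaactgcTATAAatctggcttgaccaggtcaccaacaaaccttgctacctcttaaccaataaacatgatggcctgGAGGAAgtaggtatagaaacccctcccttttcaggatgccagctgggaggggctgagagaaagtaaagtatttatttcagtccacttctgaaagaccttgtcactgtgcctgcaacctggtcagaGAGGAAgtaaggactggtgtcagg
Ly6c1, chr15:75048788-75049087, − strand: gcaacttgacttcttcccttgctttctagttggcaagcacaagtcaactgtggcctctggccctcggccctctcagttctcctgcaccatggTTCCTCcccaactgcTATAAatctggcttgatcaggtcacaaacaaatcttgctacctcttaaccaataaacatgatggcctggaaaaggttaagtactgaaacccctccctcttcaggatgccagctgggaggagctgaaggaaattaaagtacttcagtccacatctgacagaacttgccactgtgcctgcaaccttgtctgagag
Ly6c2, chr15:75111922-75112221, − strand: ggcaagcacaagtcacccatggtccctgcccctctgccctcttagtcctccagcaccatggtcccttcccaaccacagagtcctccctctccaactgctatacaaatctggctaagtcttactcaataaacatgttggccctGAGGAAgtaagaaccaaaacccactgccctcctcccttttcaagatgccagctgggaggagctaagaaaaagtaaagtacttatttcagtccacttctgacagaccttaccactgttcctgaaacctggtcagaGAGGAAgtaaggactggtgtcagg
Ly6a2, chr15:75135079-75135378, − strand: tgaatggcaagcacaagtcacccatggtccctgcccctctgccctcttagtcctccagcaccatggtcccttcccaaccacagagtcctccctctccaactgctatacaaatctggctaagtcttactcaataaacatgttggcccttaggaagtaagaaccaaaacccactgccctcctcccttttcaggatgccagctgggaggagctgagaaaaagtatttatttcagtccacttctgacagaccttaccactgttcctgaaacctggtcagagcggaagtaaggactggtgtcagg
The first windows of Ly6c2 and Ly6a2 were 98.3% identical over 295 aligned bases. Ly6g matched Ly6c2 at 85.7% over 273 bases, and Ly6c1 matched Ly6c2 at 78.2% over 266 bases.

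GAGGAA was present in 6 of the 6 windows of the members, against 28.3% of 32851 windows of this length, but the windows of 1 gene overlap and the genes resemble each other. TATAA, added after the sequences were seen, was present in 3 of the 6 (17.5% of all windows), those of Ly6g and the first of Ly6c1. Each of 4 other motifs, searched for on both strands, had no match in the 6 windows. They were CACCTG, an E-box bound by Zeb factors (20.2% of all windows), the interferon-stimulated response element core (3.44%), the gamma-activated site TTCNNNGAA (8.30%) and the C/EBP motif TTGCNNAAT (2.40%). None of these contains GAGGAA. The Ly6a2 window held none of the motifs searched. A match is a run of letters, not a site shown to be bound.

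**Figure D1:**
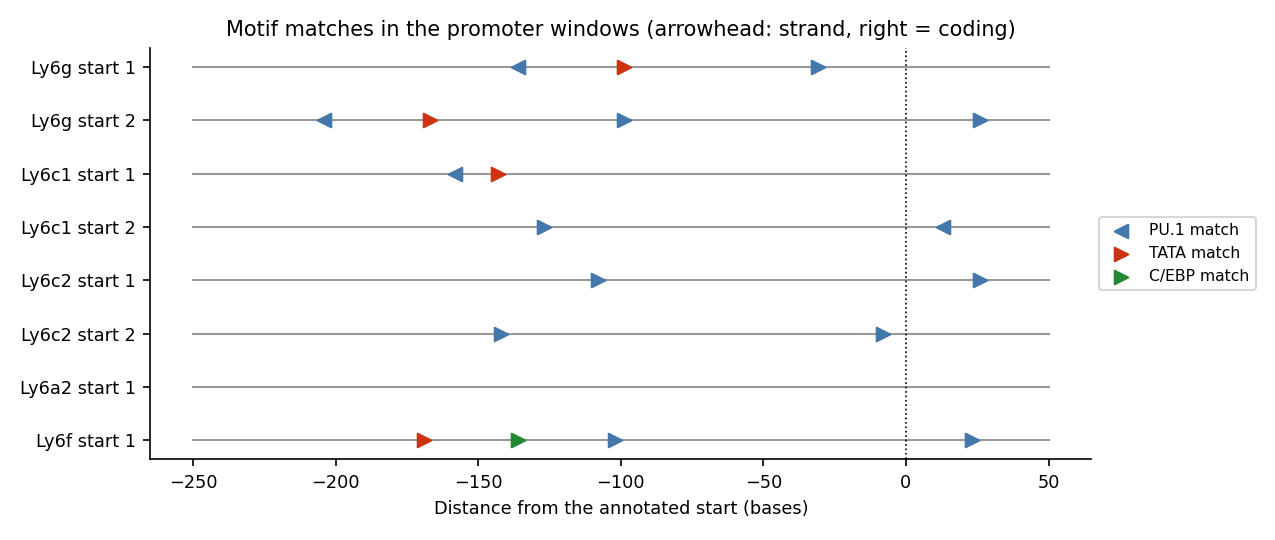
Motif matches in the promoter windows of Ly6g, Ly6c1, Ly6c2, Ly6a2 and Ly6f, by distance in bases from the annotated start (dotted line). Blue arrowheads are matches to the PU.1 core, red to TATA and green to C/EBP, pointing right on the coding strand and left on the other. The 6 windows of the members each hold a PU.1 match, and the Ly6a2 window holds none.

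Ly6g was the member that changed with the genotype label, and it did so in monocytes. The poly(I:C) control monocytes read 3.59, 3.59, 4.48 and 3.95, and the monocytes labelled Zeb2-deficient read 9.59, 8.35, 9.16 and 9.24. All 4 labelled arrays stood far above the controls, of which 3 of 4 were below the floor of their array, and the untreated control at 4.10 was among the controls. The means were 3.90 ± 0.42 and 9.09 ± 0.53 (SD, n = 4 each), a change of 5.18 ± 0.22 (SE, 95% interval 4.72 to 5.65), or 36.3-fold (limma, adjusted p = 5.88e-11). With the control arrays raised to the floor, the change was 4.71, or 26.1-fold. Within set A the change was 5.38, and within set B 4.99. Of the 5 member probe sets 1 passed the test in monocytes, where 7.54% of the 13389 genes tested did (5.11% higher and 2.43% lower).

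In neutrophils Ly6g was high under both labels. The controls read 11.94, 12.06, 11.66 and 11.69, the arrays labelled deficient 11.80, 11.92, 11.63 and 11.57, and the untreated control 11.90. The groups overlapped, and the difference was -0.11 ± 0.22 (SE, 95% interval -0.58 to 0.36, adjusted p = 0.999). Of the 5 member probe sets 0 passed in neutrophils by limma, where 0.120% of genes did (0.105% higher and 0.0149% lower), and 1 of the 5, that of Ly6e, had an unadjusted p under 0.05 (683 of 13389 genes). The monocyte change exceeded the neutrophil change by 5.29 ± 0.31 (SE, limma, adjusted p = 2.12e-08), a difference for which 2.68% of genes passed (2.17% above 0 and 0.515% below). The neutrophil gate is not known. If it used Ly-6G, the sort would limit how far Ly6g could differ between neutrophil labels, and the neutrophil part of this difference could not show a loss.

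In order of level, Ly6g was highest in control neutrophils and in neutrophils labelled deficient, which overlapped, then in monocytes labelled deficient, and lowest in control monocytes. Between the control cell types the difference was -7.94 (monocytes minus neutrophils), and -7.46 with values raised to the floor. Under the deficient label the gap was -2.64, so neutrophils remained 6.25-fold above monocytes. Since Ly-6G commonly serves in sorting neutrophils, these gaps are given with no test.

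**Figure D2:**
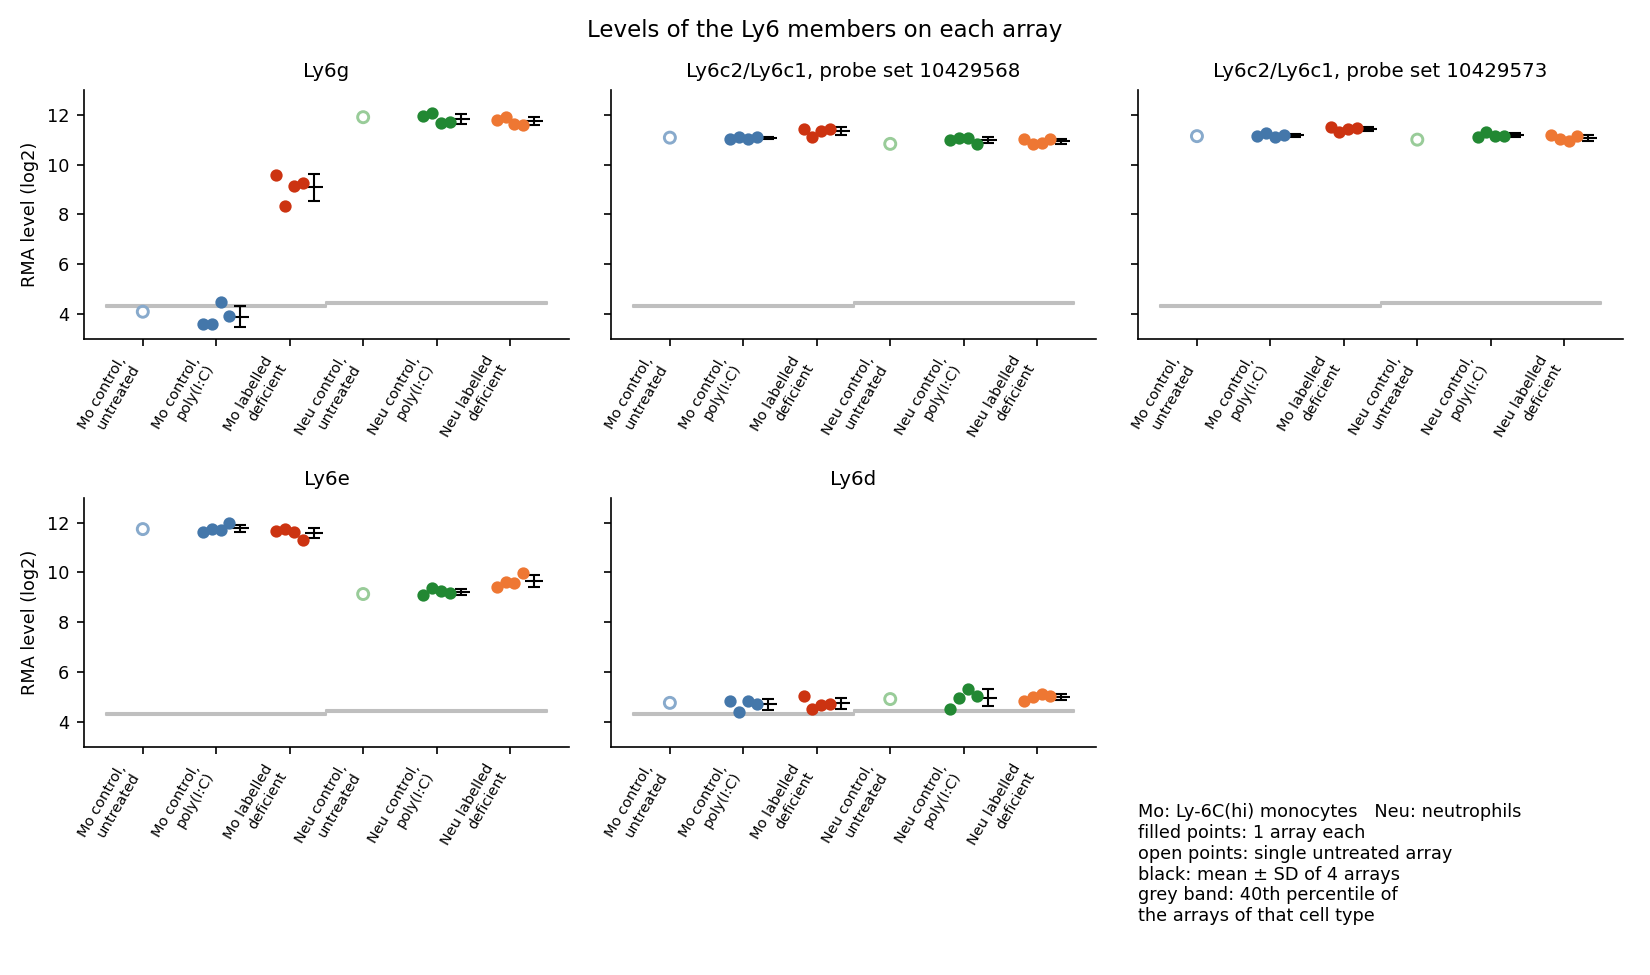
Level (log2) of the 5 member probe sets on each of the 18 arrays, by cell type (Mo, Ly-6C(hi) monocytes; Neu, neutrophils), label and treatment. Filled points are single arrays, open points the untreated arrays, black marks the mean ± SD of 4 arrays, and the grey band the range of the 40th percentiles of the arrays of that cell type. Ly6g in monocytes labelled deficient lies at 8.35 to 9.59, between control monocytes and neutrophils, while the other members differ little between labels.

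Like Ly6g, most neutrophil markers and primary granule genes were higher in monocytes labelled deficient. Of 14 neutrophil markers 12 rose and 0 fell in monocytes labelled deficient, with a median change of 2.34 against -0.03 over all genes. Of all genes 5.11% rose and 2.43% fell there, which is the share to set beside each count with the label. The secreted resistin-like protein Retnlg rose by 5.55, the granule iron binder lactoferrin (Ltf) by 4.28 and the chemokine receptor Cxcr2 by 3.66. Of 8 genes listed for primary granules and the promyelocyte stage, 7 rose and 0 fell (median 2.68). Nkg7 at 3.85, Ms4a3 at 3.29 and the lectin Fcnb at 3.13 changed most. Between control cell types 4 of these 8 were higher in monocytes and 1 lower (median 1.98), against 29.9% and 28.7% of all genes. Ly6g differed the other way, being lower in control monocytes. Of 8 progenitor genes tested 3 rose, the transcription factors Myb (2.09) and Erg (1.68) and the receptor Kit (2.01), and 1 fell. The median of the 8 was 0.18, with 5 above 0 and 3 below. Of 13 monocyte markers 0 rose and 5 fell (median -0.76), among them the chemokine receptor Cx3cr1 at -1.17 and the growth factor receptor Csf1r at -0.87. Blocking on the array set made the monocyte count 10, and blocking on the replicate number made it 3. The mean of the 14 neutrophil markers was 7.24 to 8.53 in control monocytes, 9.65 to 10.4 in monocytes labelled deficient and 11.8 to 11.9 in control neutrophils, and 0 of the 14 were below the floor on every control monocyte array.

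In each monocyte group the array highest in Ly6g was also highest in the neutrophil markers. Among control monocytes the array with the highest Ly6g, replicate 4 at 4.48, also had the highest marker mean (8.53) and the highest primary granule mean (8.96, against 6.80 to 8.18 in the others). Among monocytes labelled deficient, replicate 1 was highest in both (9.59 and 10.4), though its primary granule mean was below those of replicates 3 (10.8) and 4 (11), and replicate 2 lowest in both (8.35 and 9.65), with the highest mean of monocyte markers (10.2, against 9.23 to 9.79). Both control arrays of set B had higher means of neutrophil markers (8.53 and 8.14) than those of set A (7.25 and 7.24). The part of these markers in the Ly6g change was not tested. In bulk arrays a few cells with much Ly6g and many cells with little cannot be told apart. Without control replicate 4 the Ly6g change was 5.38, and without labelled replicate 2 it was 5.43.

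On the linear scale, Ly6g in monocytes labelled deficient reached a mean of 15.4% of its level in control neutrophils (8.84% to 20.9% over the 4 arrays), against 0.419% in control monocytes, where most arrays were below the floor. The same share for the 14 neutrophil markers ran from 3.18% to 91.4% with a median of 37.3%, and 11 of the 14 stood above Ly6g. The calgranulins S100a9 (91.4%) and S100a8 (89.0%) and the granule peptide Camp (83.3%) were nearest to the neutrophil level. The markers named in these sentences were chosen after their values were seen. Below Ly6g stood the gelatinase Mmp9 (3.18%), Ceacam10 (3.21%) and Cxcr2 (8.98%). Csf3r, the receptor for granulocyte colony-stimulating factor, was at 18.9% in control monocytes and 18.8% in those labelled deficient.

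**Figure D3:**
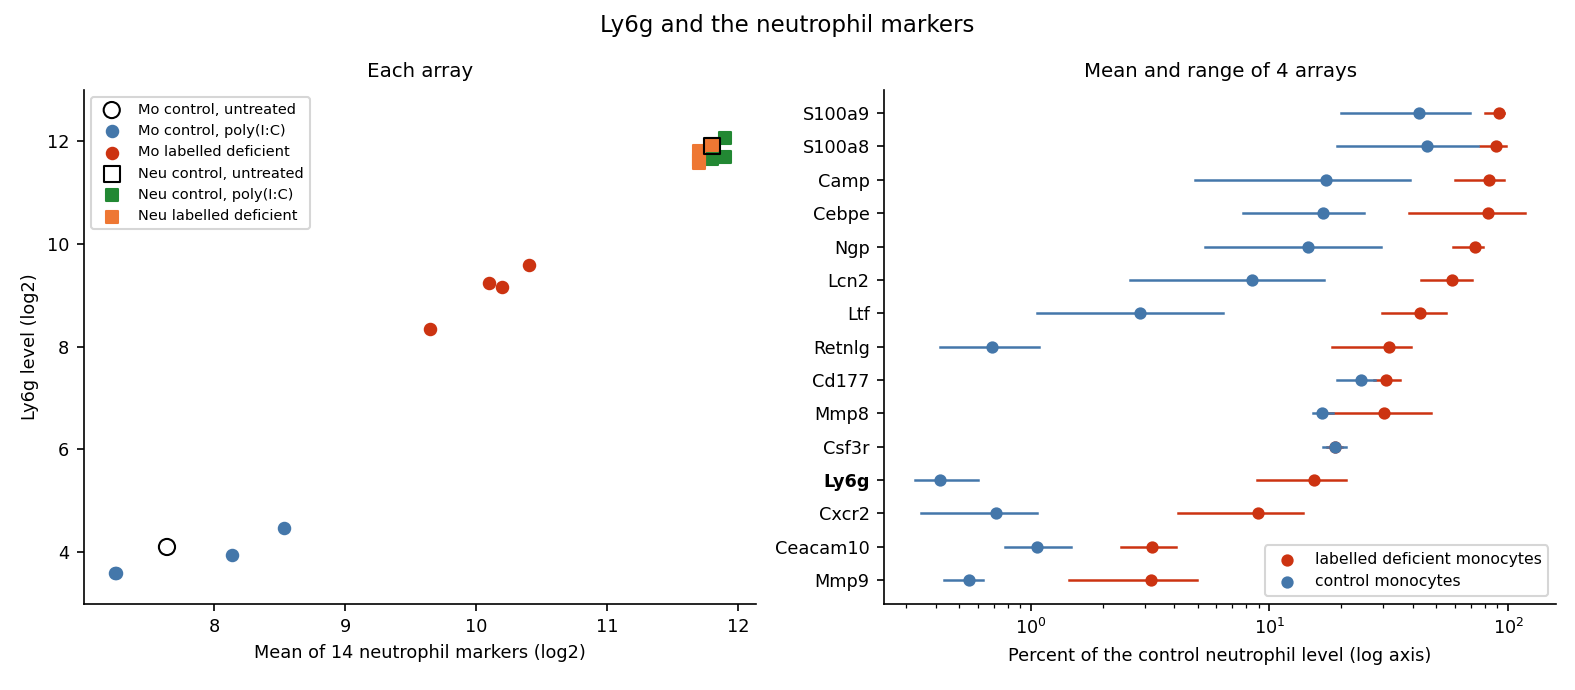
Left, Ly6g level against the mean of 14 neutrophil markers (both log2) on each of the 18 arrays, circles for monocytes and squares for neutrophils, with the untreated arrays open. Right, level of Ly6g (bold) and each marker in monocytes as a percent of the control neutrophil mean on a log axis, as the mean (point) and range (line) of 4 arrays for control and labelled deficient monocytes. Ly6g moves from 0.419% to 15.4%, above Cxcr2, Ceacam10 and Mmp9 and below the other 11 markers.

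The transcripts behind Ly-6C were at similar levels in both sorted cell types, and slightly higher in monocytes labelled deficient, a difference that did not pass the test. Monocytes of both labels were sorted as Ly-6C(hi), so the sort limits how far these values could differ, and the test cannot show a loss of Ly-6C. Probe set 10429568 read 11.02, 11.09, 11.01 and 11.10 in control monocytes and 11.44, 11.10, 11.34 and 11.44 in monocytes labelled deficient, with the untreated control at 11.08. The groups did not overlap, though the highest control and the lowest labelled array, replicate 2, both round to 11.10. The means were 11.06 ± 0.044 and 11.33 ± 0.16 (SD, n = 4 each), a difference of 0.27 ± 0.091 (SE, 1.21-fold, 95% interval 0.08 to 0.47, adjusted p = 0.0796).

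Probe set 10429573 gave the same picture. It read 11.14, 11.25, 11.09 and 11.20 in control monocytes and 11.49, 11.30, 11.41 and 11.48 in monocytes labelled deficient, again with no overlap and with replicate 2 the lowest. The difference was 0.25 ± 0.081 (SE, 1.19-fold, 95% interval 0.08 to 0.42, adjusted p = 0.0764). Both probe sets did not overlap, where 10.1% of all genes did not. The differences were 0.21 and 0.19 in set A and 0.34 and 0.30 in set B, in the order of the probe sets above. They passed when the array set was blocked (adjusted p = 0.0454 and 0.0395) and with array weights (0.0261 and 0.0326). They also passed after quantile normalization (0.0292 and 0.0317) and without labelled replicate 2 (0.35 and 0.29, adjusted p = 0.0109 and 0.0295). These were 4 of the 21 alternatives tried. Neither probe set passed under the rest, where the adjusted p reached 0.607 and 0.596.

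In neutrophils the shared probe sets did not differ between labels beyond their spread. The first read 10.98, 11.07, 11.05 and 10.81 in controls and 11.01, 10.83, 10.87 and 11.03 under the deficient label, and the second 11.10, 11.29, 11.15 and 11.14 against 11.18, 11.01, 10.94 and 11.16. The groups overlapped in both, with differences of -0.04 (95% interval -0.23 to 0.15) and -0.10 (-0.27 to 0.07), and adjusted p = 0.999 for each. The untreated neutrophil array read 10.83 and 11. The monocyte difference exceeded the neutrophil one by 0.32 ± 0.13 (SE, adjusted p = 0.265) and 0.35 ± 0.11 (adjusted p = 0.140).

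Between the control cell types the shared probe sets differed by 0.08 and 0.003 (monocytes minus neutrophils), and the arrays overlapped in both. Under the deficient label monocytes were higher by 0.40 and 0.35, with no overlap. The sort label names Ly-6C, so these are descriptions. Quantile normalization turned all 4 differences negative, to -0.40 and -0.45 in controls and -0.07 and -0.10 under the deficient label. In the deposited values both probe sets stood at the 98.2 and 98.4 percentile of control monocyte arrays and at the 98.8 and 99 percentile of control neutrophil arrays. The 2 probe sets followed each other, with r = 0.925 over the 18 arrays, a value that includes the differences between groups. With group means subtracted over the 16 poly(I:C) arrays, r was 0.778. Probe set 10429573 read higher by 0.043 to 0.336 on every array.

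Ly6e was the member that set monocytes above neutrophils. Control monocytes read 11.63, 11.76, 11.72 and 11.97 and control neutrophils 9.10, 9.39, 9.26 and 9.20, with the untreated arrays at 11.74 and 9.14. The cell types did not overlap, and the difference was 2.54 ± 0.13 (SE, 5.81-fold, adjusted p = 1.21e-11). Under the deficient label it was 1.94 ± 0.13 (SE, 3.85-fold, adjusted p = 6.40e-10). Differences between sorted cell types are common on these arrays, where 58.6% of genes passed in controls and 62.1% under the deficient label (30% higher in monocytes and 32.1% lower). Groups did not overlap for 56.2% and 50.7% of genes, so a pass says little that is particular to Ly6e.

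With the genotype label the Ly6e differences had opposite signs in the cell types, and neither passed the test. Monocytes labelled deficient read 11.67, 11.74, 11.64 and 11.31, overlapping the controls, a difference of -0.18 ± 0.13 (SE, 95% interval -0.45 to 0.08, adjusted p = 0.472). Neutrophils labelled deficient read 9.42, 9.60, 9.57 and 9.99, all above the controls. Their difference was 0.41 ± 0.13 (SE, 1.33-fold, 95% interval 0.15 to 0.67), with an unadjusted p of 0.00421 and adjusted p = 0.612. Groups did not overlap for 3.43% of genes in neutrophils.

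The monocyte difference in Ly6e lay below the neutrophil difference by 0.59 ± 0.18 (SE, adjusted p = 0.0901). Within the array sets it was -0.26 (A) and -0.93 (B, adjusted p = 0.0305 alone), and without labelled monocyte replicate 2 it was -0.64 (adjusted p = 0.0423). Neutrophil replicate 4 under the deficient label, the highest in Ly6e at 9.99, also had the highest primary granule mean among the neutrophil arrays (7.13, against 5.82 to 6.25 in the others). It had the highest monocyte marker mean as well (5.59, against 5.20 to 5.37). Without it the neutrophil difference was 0.29 (adjusted p = 0.993). The part of these markers in the Ly6e values was not tested.

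Ly6e was set beside a list of other interferon-stimulated genes. Of 30 tested in monocytes, 0 rose and 2 fell, Lgals3bp at -0.83 and Ifi203 at -0.61, against 5.11% and 2.43% of all genes. The median was -0.50, and 29 of the 30 lay below 0. The number that fell was 6 with the array set as a block and ranged from 0 to 16 over the 21 alternatives. In neutrophils 1 of the 30 rose, against 0.105% of all genes, and the median was 0.08. It was Ifi203 at 0.89 (limma, adjusted p = 0.0305), which did not pass with the replicate number as a block. The list mean was 7.02 to 7.58 in control monocytes and 6.55 to 7.33 under the label, and 6.09 to 6.60 and 6.24 to 6.72 in neutrophils, so the ranges overlapped in both cell types. Between control cell types 19 of the 30 were higher in monocytes and 6 lower (median 0.78), against 29.9% and 28.7% of all genes, with Ifi203 (6.03), Ifi205 (3.50) and the antiviral GTPase Mx1 (3.48) the most.

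**Figure D4:**
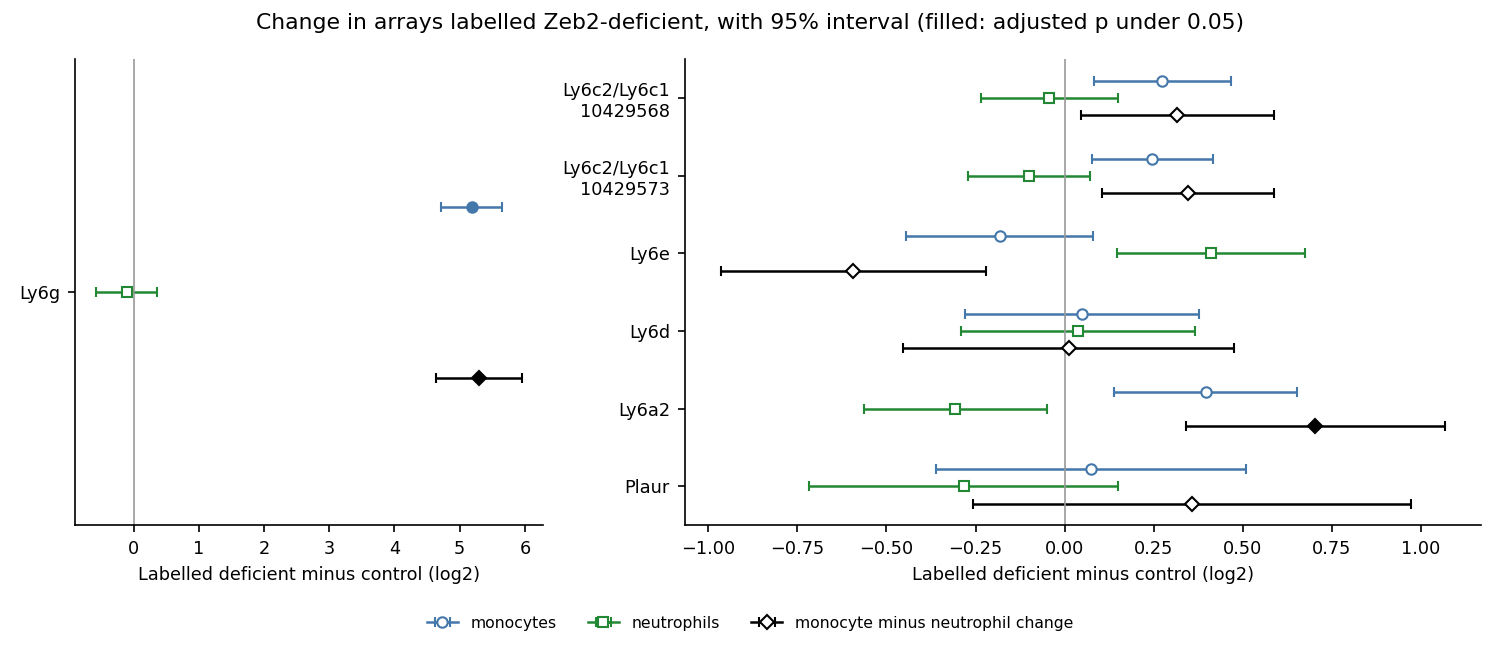
Difference between arrays labelled Zeb2-deficient and poly(I:C) controls (log2) with its 95% interval, for Ly6g (left) and for the other member probe sets, Ly6a2 and Plaur (right, on a wider scale). Blue circles are monocytes, green squares neutrophils and black diamonds the monocyte change minus the neutrophil change, and filled symbols passed at an adjusted p under 0.05. Ly6g passed at 5.18 in monocytes and Ly6a2 in the difference between cell types (0.70), while the intervals of Ly6d all cover 0.

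Ly6d lay near the middle of each array in every group. Control monocytes read 4.84, 4.40, 4.85 and 4.74, monocytes labelled deficient 5.06, 4.54, 4.69 and 4.75, control neutrophils 4.52, 4.97, 5.34 and 5.05, and neutrophils labelled deficient 4.84, 5.02, 5.12 and 5.05. All groups overlapped, their mean positions were the 47.0 to 52.8 percentile of the arrays, and the untreated arrays read 4.77 and 4.93. The genotype differences were 0.05 (95% interval -0.28 to 0.38) in monocytes and 0.04 (-0.29 to 0.37) in neutrophils. Control monocytes lay below control neutrophils by 0.26 ± 0.16 (SE, adjusted p = 0.156), which passed only without control neutrophil replicate 1, the lowest of its group (-0.41, adjusted p = 0.0230). At such levels a probe set gives little room to see a lower value.

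Relatives of the members were taken from a list of 41 genes of the Ly6 and urokinase receptor family, of which 37 had a probe set and 21 were tested. In most of them little signal was seen, and 2 of the 37, Ly6a2 and Plaur, had a mean above 6 in any group. With the genotype label 0 of the 21 passed in monocytes and 0 in neutrophils (medians -0.01 and 0.02), against 7.54% and 0.120% of all genes. Between control cell types 2 were higher in monocytes, Lynx1, a modulator of nicotinic receptors (0.72), and Ly6i (0.61), and 11 were lower, against 29.9% and 28.7% of all genes. The median was -0.29. Ly6i lost its call without control monocyte replicate 4 or 5, whose values were the highest of its group. No array of control neutrophils was above the floor for Ly6i. With values raised to the floor, the difference was 0.18 for Ly6i and 0.57 for Lynx1. The count of lower genes ranged from 3 to 14 over the 21 alternatives.

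Plaur, the urokinase receptor, was the relative with the widest gap between the cell types. It read 9.23, 8.84, 8.66 and 8.66 in control monocytes and 10.47, 10.86, 10.43 and 10.52 in control neutrophils, with no overlap, a difference of -1.72 ± 0.21 (SE, 3.30-fold, adjusted p = 1.11e-06). Ly6f followed at -0.99, with all control monocyte arrays below the floor, and at -0.79 with values raised to the floor. Ly6g6c, Slurp2, Ly6g6e, Slurp1, Lypd6b, Gpihbp1, Ly6g2 and Spaca4 were lower by smaller amounts, from -0.47 to -0.28. With values raised to the floor, Lypd6b shrank to -0.11 and Ly6g2 to -0.18, while Ly6g6c stayed at -0.47. Under the deficient label 2 relatives were higher in monocytes and 14 lower (30% and 32.1% of all genes), among them Lypd5 at -0.44 (limma, adjusted p = 0.00227). Ly6i and Ly6g6e were named after their values were seen. The floor itself was higher in neutrophil arrays.

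Of the 21 relatives tested, 1, Ly6a2, passed for a difference between the genotype changes of the cell types, where 2.68% of all genes passed. Control monocytes read 9.89, 9.90, 9.85 and 10.03 and those labelled deficient 10.59, 10.01, 10.42 and 10.23, while control neutrophils read 10.61, 10.68, 10.42 and 10.40 and those labelled deficient 10.26, 10.43, 10.01 and 10.19. The groups overlapped in both cell types, in each through labelled replicate 2. The difference was 0.40 ± 0.12 (SE, adjusted p = 0.0561) in monocytes and -0.31 ± 0.12 (SE, adjusted p = 0.891) in neutrophils. The monocyte difference exceeded the neutrophil difference by 0.70 ± 0.17 (SE, adjusted p = 0.0332). In sets A and B alone the excess was 0.71 and 0.70 (limma, adjusted p = 0.306 and 0.0330), so set A alone did not pass. The call was lost on leaving out any of 10 of the 16 arrays (adjusted p from 0.0524 to 0.0863). It held without monocyte replicates 2 and 4 under the deficient label and 5 among controls, and without neutrophil replicate 2 under the label and 4 and 5 among controls. In control cells Ly6a2 was lower in monocytes by 0.61 ± 0.12 (SE, adjusted p = 0.000341). The promoter windows of Ly6a2 and Ly6c2 were near-identical, but their transcripts were not compared. How far the probes of one also read the other was not tested.

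The members and some of the relatives lie in one stretch of chromosome 15, where RefSeq lists 22 protein-coding genes from Ly6d to Ly6h, 14 with a probe set of their own and 13 tested. Among these 13, Ly6g alone passed with the genotype label in monocytes, where 7.54% of all genes did. Its neighbours in the order of the chromosome, Ly6a2 on one side and Ly6g2 on the other, differed by 0.40 and 0.05 there, and neither passed. Ly6g2 was below the floor on 4 of 4 control monocyte arrays and on 3 of 4 under the label.

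**Figure D5:**
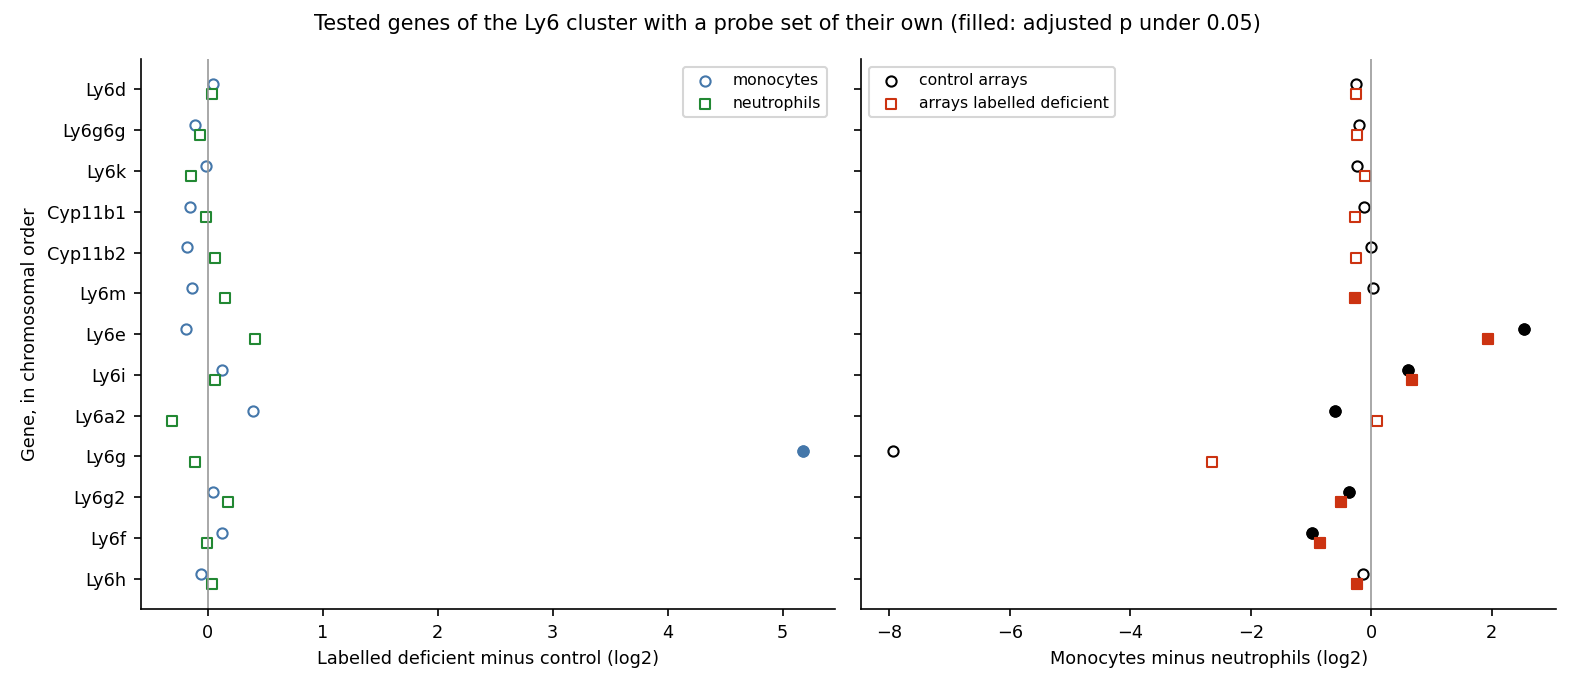
The 13 tested genes from Ly6d to Ly6h with a probe set of their own, in chromosomal order, not to scale. Left, difference between labelled deficient and control arrays (log2) in monocytes (blue circles) and neutrophils (green squares). Right, monocytes minus neutrophils in control arrays (black circles) and arrays labelled deficient (red squares); filled symbols passed at an adjusted p under 0.05, and Ly6g is not tested on the right. Ly6g stands alone at 5.18 on the left, and Ly6e is the gene farthest to the right of 0 in the cell type comparison.

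The machinery that attaches the GPI anchor was also measured, since most Ly6 proteins need it to reach the surface. Of 29 tested genes of GPI synthesis and remodelling, 2 rose in monocytes labelled deficient and 0 fell, against 5.11% and 2.43% of all genes. They were Pgap6, at 1.01 ± 0.17 (SE, adjusted p = 0.000928), and Piga, the catalytic subunit of the first step, at 0.84 ± 0.22 (SE, adjusted p = 0.0263), and 4 rose with the array set as a block. The median was 0.002, and 0 passed in neutrophils, where 0.120% of all genes did. Between control cell types 10 were higher in monocytes and 8 lower (median 0.12), near the shares of 29.9% and 28.7% among all genes, with the inositol deacylase Pgap1 at 4.02, Pgap6 at -1.60 and Pigf at 1.56 the most.

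Another list was drawn up for other GPI-anchored surface proteins, without a check that each carries the anchor. Of its 23 tested genes, 5 rose in monocytes labelled deficient and 0 fell (median 0.07), against 5.11% and 2.43% of all genes. The 3 with the largest change were the adhesion protein Cd24a at 1.99, the leukocyte metalloproteinase Mmp25 at 1.79 and Ceacam10 at 1.62, which is also among the neutrophil markers. None passed in neutrophils, where 0.120% of all genes did. Between control cell types 3 were higher in monocytes and 18 lower (median -0.59), against 29.9% and 28.7% of all genes, with Ceacam10 (-6.61), Mmp25 (-5.35) and the complement regulator Cd55 (-5.28) the lowest.

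The genes whose pattern over the 18 arrays was most like each member's were named by Pearson's r, which here mostly carries the differences between groups. For Ly6g they were Il1f9 (0.992), Retnlg (0.991) and Actn1 (0.990), and for Ly6e the interferon-inducible genes Ifi209 (0.994), Ifi203 (0.992) and Ifi30 (0.992). For Ly6d they were Gm10512 (0.874), Olfr316 (0.856) and Hpn (0.843). For Ly6c2/Ly6c1 each probe set had the other first, followed by Srpk1 (0.910) and Net1 (0.906) for 10429568 and Orc1 (0.869) and Blzf1 (0.866) for 10429573.

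After group means were subtracted over the 16 poly(I:C) arrays, other genes led, and each r then rests on the spread within groups, which includes the array sets. Ly6g was nearest to Cyfip2 (0.937), Adgrg3 (0.926) and Adpgk (0.910), and Ly6e to the immediate early gene Egr1 (0.871), Phax (0.845) and then Zfp36. Ly6d was nearest to 0610025J13Rik (0.916), Gm10512 (0.905) and Fam220a (0.887). Probe set 10429568 was nearest to Pomgnt2 (0.835), Cd6 (0.792) and Clec18a (0.791), and 10429573 to Tm7sf3 (0.805), its partner (0.778) and Man1b1 (0.773). Each was picked as the highest over all genes tested.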

How the data were processed

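RNA of sorted cells was hybridised to 18 Affymetrix Mouse Gene 1.0 ST arrays. The deposited values are log2 levels from RMA, per the submitters' processing notes; no version is given in the sources used here. They lay between 1.05 and 13.5 (array medians 4.81 to 4.92) and carry no detection call. Precision is limited by how few arrays each group has.

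Of 30177 probe sets, 21789 had 1 gene symbol in the platform annotation, 1621 several and 6767 none. Only those with 1 symbol were named, except the pair shared by Ly6c2 and Ly6c1. Probe sets above the 40th percentile of the array on at least 4 arrays were tested, 13389 in all. A model of 6 group means over the 18 arrays (12 residual degrees of freedom) was fitted with limma 3.58.1 in R 4.3.3, with a variance trend and Benjamini-Hochberg adjustment over all tested, at a threshold of 0.05. Descriptions were computed with Python 3.11.15, pandas 2.3.3, numpy 2.4.6 and Biopython 1.88 (pairwise alignment of promoters). Intervals are 95%.

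Members, lists and alternatives were chosen with earlier results of these data known. Named genes were all member probe sets, up to 12 relatives that passed in any contrast, by smallest p, up to 3 with the largest change among those that passed in each list, and the 3 genes most like each member. Alternatives were the replicate block, the array set as a block or alone, only the arrays compared, other scalings, filters, trend, weights and probe set rules, and leaving out each array. A planned description of the proteins was not run.

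Replicate numbers are shared between groups, but the labels do not say what they mark. Deviations of same-numbered control and labelled arrays correlated at 0.183 to 0.428 within a cell type (6 of 6 pairs over 0.1), and those of other numbers in the same array set at 0.127 to 0.348. The correlations thus followed the array set as well as the number (10 of 10 pairs of other numbers in 1 set were over 0.1). The reported fit has no block, and the replicate block is an alternative.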

Additional observations from a re-analysis of the deposited data

Results flagged for a closer look

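The genotype change of Ly6g differed between monocytes and neutrophils, by 5.29 on the log2 scale, with the neutrophil gate not known. That of Ly6a2 differed by 0.703, a call that leaving out any of 10 of the 16 arrays ended. In neutrophils labelled Zeb2-deficient, 1 array stood apart from the other 3 in Ly6h (replicate 3 at 5.133, others 4.839 to 4.883) and 1 in Ly6m (replicate 1 at 4.619, others 4.928 to 4.940). These were 2 of 96 groups of 4 arrays examined for an array apart from the rest, and chance gives about 1 in 20.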

How the results depend on the processing

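In monocytes 3 member probe sets passed, in place of 1, with the array set as a block, after quantile normalization and with array weights, and 1 to 3 on leaving out single arrays (3 without labelled replicate 2). The added calls were those of Ly6c2/Ly6c1, whose probe sets each passed under 4 of the 21 alternatives. For the difference between cell types 2 passed in set B alone and 1 to 2 on leaving out single arrays. Between control cell types the range was 1 to 2. Ly6g passed in monocytes under all 21 alternatives. Quantile normalization turned the monocyte minus neutrophil values of Ly6c2/Ly6c1 to -0.40 and -0.45 in controls and to -0.074 and -0.097 under the deficient label, and moved the median of all genes between control cell types from -0.08 to -0.13.

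Over all genes, 1010 passed in monocytes, 1519 with the array set as a block, 215 in set A, 1724 in set B, 500 with only the arrays compared and 1616 with array weights. Leaving out single arrays gave 620 to 2003, the most without labelled replicate 2. In neutrophils 16 passed, 3 in set A, 9 with only the arrays compared and 8 to 17 on leaving out arrays. For the difference between cell types 359 passed, 567 with the array set as a block, 72 in set A, 731 in set B, 652 with array weights and 245 to 904 on leaving out arrays. With the replicate number as a block, 879 genes passed in monocytes, 13 in neutrophils and 459 for the difference, and no member gained or lost a call (1, 0 and 1 passed). The cause of these shifts was not tested. Values near the floor, such as Ly6g in control monocytes and most relatives, limit how large a fold can be read.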

Other observations

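Markers of other marrow cells were also read in monocytes labelled Zeb2-deficient, where 5.11% of all genes rose and 2.43% fell. In lists of 4 to 6 genes a single call says little about a cell type. Of 6 plasmacytoid dendritic cell genes tested 2 rose, Atp1b1 by 1.69 and the chemokine receptor Ccr9 by 1.08, and 1 fell, the transcription factor Tcf4 at -0.87. Of 4 plasma cell genes 1 fell, the repressor Prdm1 at -1. Of 4 eosinophil genes 1 rose, Siglecf by 1.10. Of 4 endothelial genes 1 rose, the adhesion molecule Pecam1 by 0.90, and 1 fell, the growth factor receptor Flt1 at -0.55, which did not pass with the replicate number as a block. Of 6 B cell, 5 T and NK cell and 5 erythroid genes 0 passed in either direction by limma. In neutrophils 0 genes of these lists passed, where 0.120% of all genes did.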
